A study of Homo sapiens with 12 samples.

Results

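Leukocyte integrins and CD44, the surface receptors through which B-cell precursors hold on to the bone marrow niche, were examined in RCH-ACV cells. The genes were taken by symbol: the alpha chains ITGA4, ITGA5, ITGA6, ITGAL and ITGAV, the beta chains ITGB1, ITGB2 and ITGB7, and CD44. All 9 were listed among the 15612 genes of clone 1 and the 16848 genes of clone 2. RCH-ACV is an established human line of pre-BCR+ ALL. The 12 libraries fall into 4 groups of 3: clone 1 sensitive, clone 1 resistant, clone 2 sensitive and clone 2 resistant. Sensitive cells were cultured with vehicle (0.1% DMSO) and resistant cells with rising concentrations of dasatinib, a multi-kinase inhibitor, up to 1 µM. The replicates of a group are RNA isolations of the same subline at different times, and each resistant subline is a single line derived under the drug.

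The value available for a gene is the authors' mean normalized count, its read count corrected for library size and averaged over the 6 libraries of a clone. This mean pools resistant and sensitive cells, so the levels below describe the adhesion receptors of each clone and not the effect of dasatinib resistance. The tables give resistant against sensitive only as the authors' own comparison, which was not used, and the members' response to resistance was not analysed here. No spread between libraries can be given for a mean, no test was made, and the depth of single libraries is unknown. The means of all genes sum to 19108037 in clone 1 and 24561485 in clone 2. Over all listed genes, 11937 of 15612 in clone 1 and 12301 of 16848 in clone 2 had a mean of at least 50. All 13 B precursor markers had a mean of at least 50 in both clones, among them IGLL1, the surrogate light chain component, at 9233 and 12008. None of 5 T cell markers was listed in either table. Of the 6 myeloid markers only CSF1R reached a mean of 50, of the 6 erythroid and megakaryocyte markers only GP9, and of the 8 stromal and endothelial markers PDGFRB and COL1A1.

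An integrin is a pair of one alpha and one beta chain, and the pair decides the ligand. The beta chain of ITGB1 pairs with the products of ITGA4, ITGA5, ITGA6, ITGAV and several other alpha genes and binds extracellular matrix, and together with ITGA4 it also binds VCAM1 on stromal and endothelial cells. ITGB7 pairs with ITGA4 or ITGAE in lymphocytes that home to the gut, and ITGB2 with ITGAL, ITGAM, ITGAX or ITGAD in receptors for ICAM proteins. CD44 is not an integrin and binds the sugar polymer hyaluronan. Surface display needs both chains of a pair, so a transcript level alone does not give the amount of a receptor.

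Transcripts of ITGA4 and ITGB1, the chains of the VCAM1 and fibronectin receptor, were the most abundant of the 9 in both clones. ITGA4, which maps to chromosome 2, had a mean normalized count of 9043 in clone 1 and 11016 in clone 2. It ranked 300 among the genes of clone 1 and 323 among those of clone 2. ITGB1, on chromosome 10, had means of 3818 and 4742 and ranked 914 and 952. The beta chain thus stood above 94.1% of the genes in clone 1 and above 94.3% in clone 2, and ITGA4 above 98.1% in each.

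The remaining alpha chains were spread from well expressed to low. ITGA5, on chromosome 12, is the alpha chain of the classical fibronectin receptor and had means of 1797 in clone 1 and 1990 in clone 2. ITGAV, on chromosome 2, encodes the alpha chain of RGD-binding receptors and had means of 510 and 601. ITGA6, also on chromosome 2, encodes an alpha chain of laminin receptors and had means of 206 and 354. The means placed ITGA5 above 84.3% and 82.9% of the genes of clones 1 and 2, ITGAV above 54.9% and 56.1%, and ITGA6 above 38.1% and 46.3%. These percentages, like those of the other members by mean, are not corrected for gene length. Per kb of exon, ITGA5 stood above 78.1% and 76.4% of the genes with a known length. ITGAV stood above 37.3% and 39.9% of them, and ITGA6 above 27.6% and 35.3%. ITGAL, on chromosome 16, encodes the alpha chain of LFA-1 and had the lowest means of the 9 members, 20.7 and 3.91. It stood above 16.5% of the genes in clone 1 and above 8.58% in clone 2. The lowest mean listed was 2.52 in clone 1 and 1.13 in clone 2.

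Among the other beta chains, ITGB7, on chromosome 12, had means of 882 and 1305 and ITGB2, on chromosome 21, had means of 549 and 699. CD44, on chromosome 11, had means of 1820 in clone 1 and 2018 in clone 2, above 84.5% and 83.2% of the genes. Per kb of exon, CD44 stood above 71.4% and 69.7% of the genes with a known length. CD44 is spliced into many isoforms, with 10 protein-coding transcripts in the basic set of GENCODE release 29, and its mean counts them together.

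Levels of different genes were set against each other per kb of exon, with the length of each gene's merged protein-coding exons. On this scale ITGA4 stood at 1963 in clone 1 and 2392 in clone 2, and ITGB1 at 972 and 1207. ITGA5 followed with 404 and 448, ITGB7 with 308 and 455, and CD44 with 298 and 331. ITGB2 had 157 and 200 per kb, ITGAV 70.8 and 83.3, ITGA6 35.3 and 60.6, and ITGAL 3.97 and 0.750. The medians over all genes with a known length were 129 per kb in clone 1 and 144 in clone 2. On exon length, ITGA4, ITGB1, ITGA5, ITGB7, CD44 and ITGB2 lay above the median gene in both clones, and ITGAV, ITGA6 and ITGAL below it. On coding length, ITGB2 fell on the other side, with 238 and 303 per coding kb against medians of 330 and 369, and the other 8 genes kept their side. ITGA4 was 15.2 times the median gene in clone 1 and 16.6 times in clone 2 on exon length, but 8.85 and 9.64 times on coding length.

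The order of the members per kb of exon was the same in both clones for 7 of the 9 genes, and ITGA5 and ITGB7 traded places. On coding length all 9 genes kept their places, with ITGA5 before ITGB7 in both clones. Neighbours in the middle of the order on exon length were close. The ratio of ITGB7 to CD44 was 1.03 in clone 1, and that of ITGB7 to ITGA5 was 1.02 in clone 2. With coding length in place of exon length, CD44 moved ahead of ITGA5 and ITGB7 to the third place in both clones, at 818 and 906 per coding kb. The place of CD44 relative to ITGA5 and ITGB7 thus depended on the length used, and no spread is available to separate them.

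**Figure D1:**
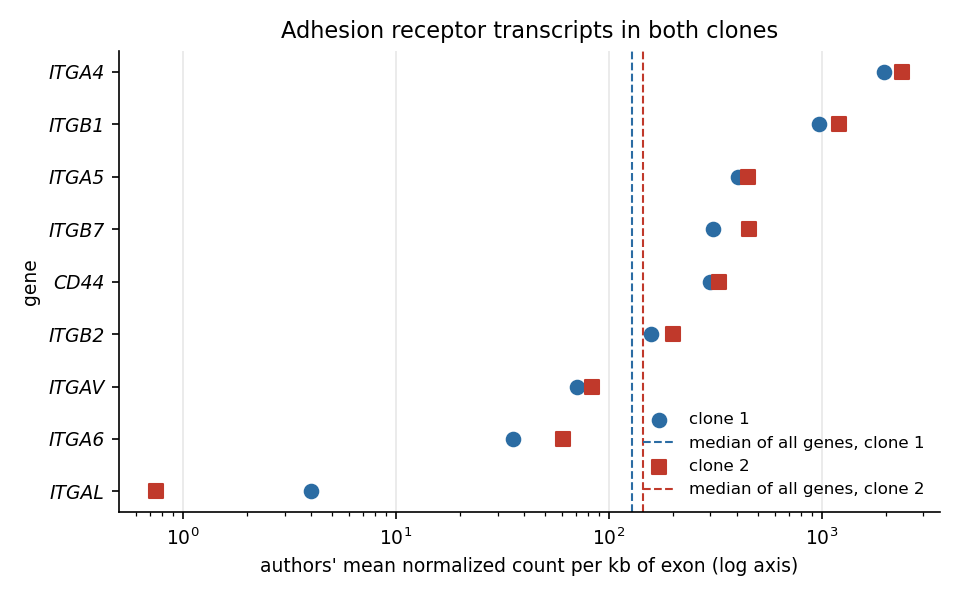
Authors' mean normalized count per kb of exon (log axis) for the 9 genes, with clone 1 as blue circles, clone 2 as red squares and the median of all genes of each clone as dashed lines. ITGA4 lies highest at 1963 and 2392, 6 genes lie right of both medians (5 on coding length, where ITGB2 lies below them), and ITGAL lies far to the left at 3.97 and 0.750.

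Among the 4 alpha members that pair with the ITGB1 product, most of the transcript level came from ITGA4 in both clones. ITGA4 made up 79.4% of the summed per-kb level of ITGA4, ITGA5, ITGA6 and ITGAV in clone 1 and 80.2% in clone 2. ITGA5 made up 16.3% and 15.0%, ITGAV 2.86% and 2.79%, and ITGA6 1.43% and 2.03%. The summed alpha level was 2.55 times that of ITGB1 in clone 1 and 2.47 times in clone 2, and ITGA4 alone was 2.02 and 1.98 times ITGB1. With the 8 other alpha partners of ITGB1 added (ITGA1, ITGA2, ITGA3, ITGA7, ITGA8, ITGA9, ITGA10 and ITGA11), ITGA4 made up 75.3% and 76.2% of the sum and ITGA8 2.87% and 2.84%. ITGB1 was in turn 3.16 and 2.65 times ITGB7, the other beta chain that can take ITGA4, and 6.19 and 6.04 times ITGB2. ITGA4 exceeded ITGAE, the second alpha partner of ITGB7, by 22.1 times in clone 1 and 19.1 times in clone 2.

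The beta chain ITGB2 was listed at a level far above the alpha chains it pairs with. Of its 4 leukocyte partners, ITGAL, ITGAM and ITGAD were listed in both tables and ITGAX in neither. Their summed level was 7.20 per kb in clone 1 and 8.07 in clone 2, so that ITGB2 was 21.8 and 24.7 times the sum. Its parts differed more between the clones than the sum. ITGAL gave 3.97 and 0.750 per kb, ITGAM gave 2.20 and 3.29, and ITGAD gave 1.03 and 4.03. All 3 partners rest on means of at most 20.7, where single reads weigh heavily.

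**Figure D2:**
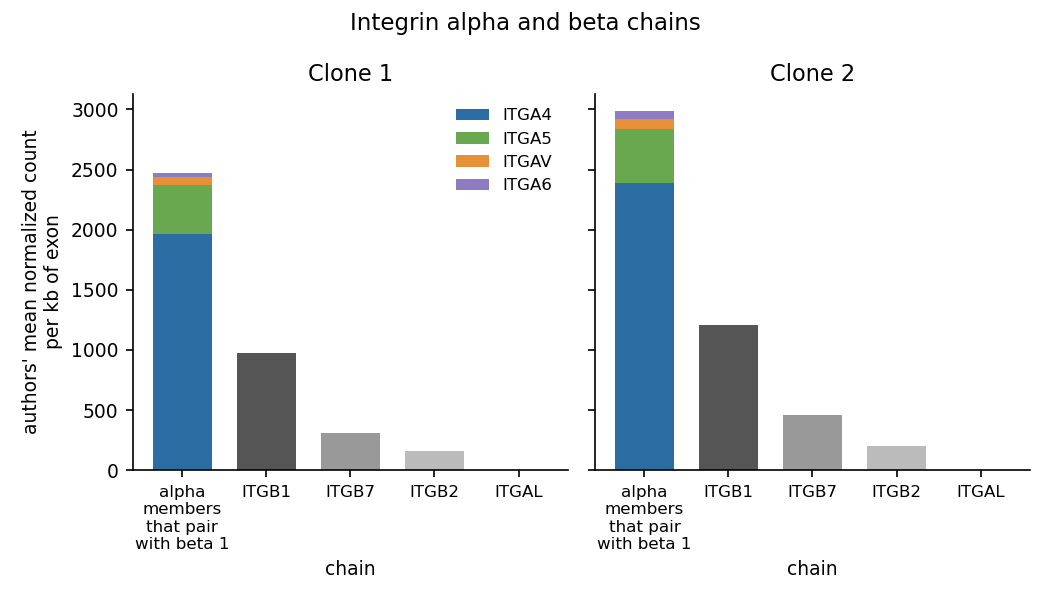
Authors' mean normalized count per kb of exon for the 4 alpha members that pair with the ITGB1 product (stacked), for ITGB1, ITGB7 and ITGB2, and for ITGAL, in clone 1 (left) and clone 2 (right). The stacks reach 2474 and 2983 and are mostly ITGA4, against 972 and 1207 for ITGB1, while ITGAL is not visible at this scale.

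The 8 integrin members were set beside the 18 other integrin chains of the human genome. Of these, 15 were listed in clone 1 and 16 in clone 2, and 7 and 8 had a mean of at least 50. The 8 members held 93.9% of the summed per-kb level of all listed chains in clone 1 and 93.1% in clone 2, and ITGA4 with ITGB1 alone held 70.4% and 69.2%. The 4 highest of the other chains by mean were ITGA8, ITGAE, ITGB3 and ITGA10. ITGAE, which pairs with ITGB7 and binds E-cadherin, had 88.9 and 125 per kb, and ITGA8 had 74.7 and 89.2. Both stood above ITGA6 in each clone on either length, and above ITGAV on exon length alone. Per coding kb, ITGA8 had 158 and 189 and ITGAV had 162 and 191, and ITGAE was below both. ITGB3, a partner of ITGAV, had 23.5 and 57.6 per kb. ITGB5, another partner of ITGAV, had 0.713 and 1.46, and ITGB6 was listed in neither table. ITGB8 was listed in clone 2 alone, at 0.238 per kb.

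**Figure D3:**
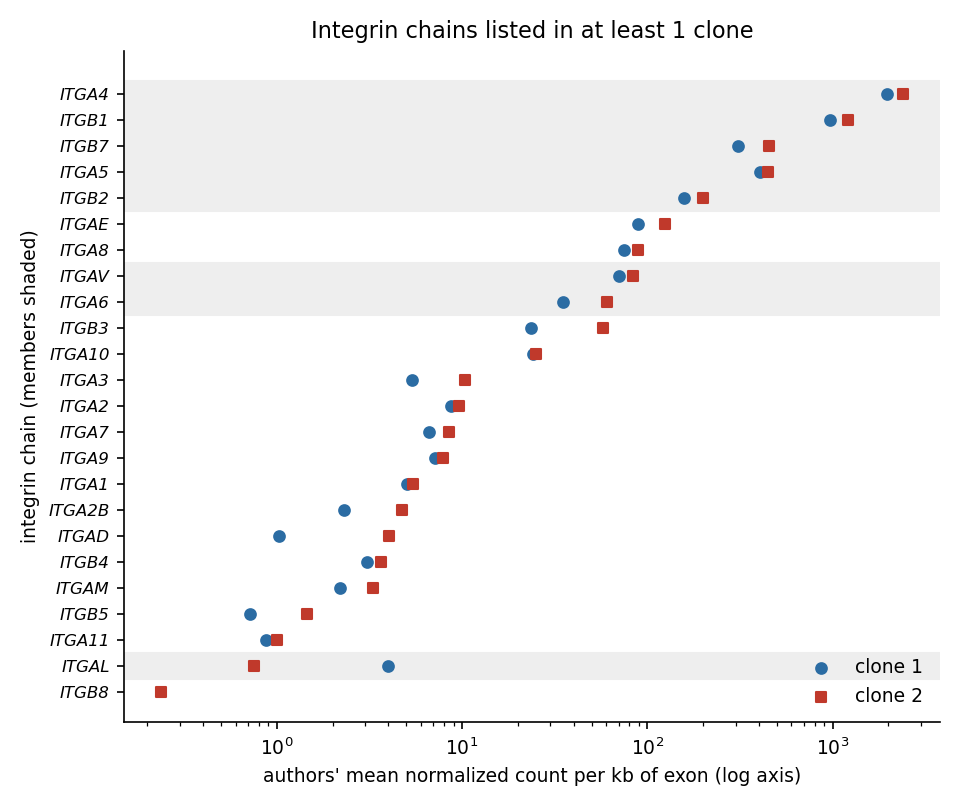
Authors' mean normalized count per kb of exon (log axis) for the 24 integrin chains listed in clone 2 (red squares), of which 23 were listed in clone 1 (blue circles). The members (shaded) take the first 5 places, ITGAE and ITGA8 stand before ITGAV (behind it on coding length) and ITGA6, and ITGAL is next to last at 0.750 in clone 2.

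Means of single genes in the clones can be set side by side only with care, since each table was normalized on its own. Over the 15582 shared genes, the median ratio of the clone 2 mean to the clone 1 mean was 1.29, so members are described relative to that median. As deposited, 8 of the 9 members had the higher mean in clone 2. Over all shared genes the lower quartile of the deposited ratio was 1.20, so most of them also had the higher mean there. Relative to the median gene, which splits the shared genes evenly by construction, only ITGA6 and ITGB7 were higher in clone 2, and 7 members were lower. Divided by the median ratio, ITGA6 had a ratio of 1.33 and ITGB7 of 1.15. ITGB2 had 0.986, ITGB1 0.963, ITGA4 0.945 and ITGAV 0.913, while CD44 had 0.860 and ITGA5 0.859. Among 11890 shared genes with a mean of at least 50 in both clones, the middle 95% of these ratios ran from 0.751 to 1.34, and the 8 members other than ITGAL lay inside that range. ITGA6 was near its upper end, with 93.7% of all shared genes at a lower ratio. The quartiles of the 11890 genes were 0.943 and 1.06, and ITGB2, ITGB1 and ITGA4 lay between them.

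ITGAL stood apart, with a scaled ratio of 0.146, a mean 6.84 times lower in clone 2 than the median gene implies. Of the shared genes, 0.0963% had a lower ratio. Low genes vary more, so ITGAL was also set against the 1676 shared genes whose average mean was within a factor of 2 of its own. The middle 95% of their ratios ran from 0.448 to 2.44, and 0.298% of them were lower than ITGAL. Which libraries of clone 1 carried the ITGAL reads is not known from a pooled mean.

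**Figure D4:**
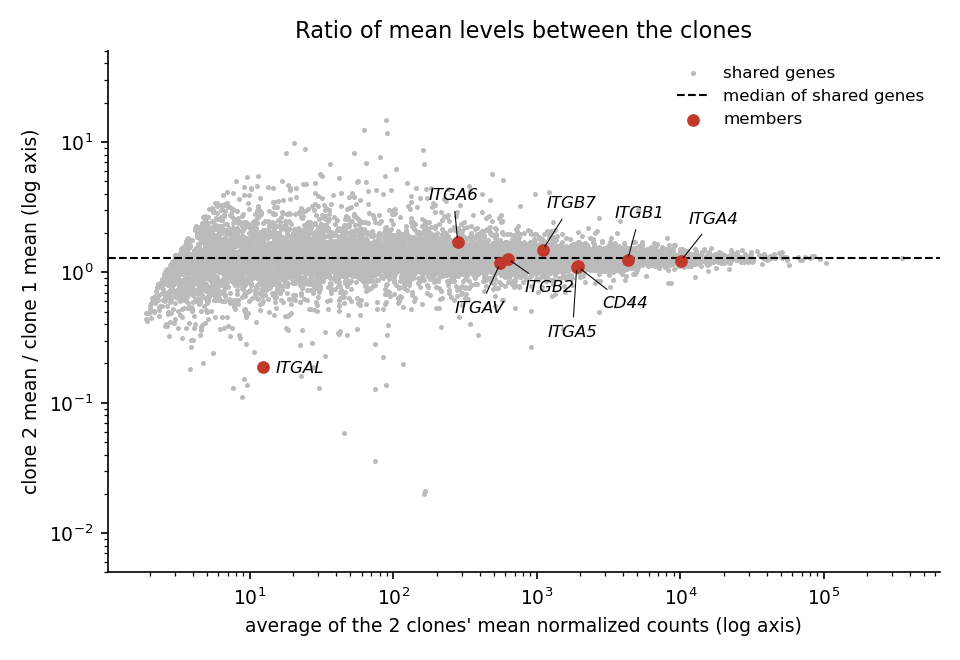
Ratio of the clone 2 mean to the clone 1 mean (log axis) against the average of both means (log axis) for the 15582 shared genes (grey; 1 gene lies below the axis) and the 9 members (red). Members other than ITGAL lie near the dashed median of 1.29, with ITGA6 highest at 1.72 as deposited, and ITGAL lies at 0.189.

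Genes that load, anchor or engage these receptors were counted from fixed lists. As a background for these counts, 11890 of the 15582 shared genes had a mean of at least 50 in both clones. Of 27 integrin activators and adaptors, 26 were listed in clone 1 and 27 in clone 2, and 25 had a mean of at least 50 in both. The highest by mean, uncorrected for length, were FLNA, a filamin that links beta chains to actin, and TLN1, the talin that switches integrins on. FLNA had 1304 and 1740 per kb, and TLN1 had 1085 and 1220. VCL, which reinforces talin's hold on actin, had 722 and 906 per kb, and RAP1B, a small GTPase upstream of talin, had 291 and 384. TLN1 was thus of the order of ITGB1, with 972 and 1207 per kb. Per coding kb, RAP1B had 7564 and 9964, above FLNA, TLN1 and VCL in both clones. The place of RAP1B among these genes depended on the length used. Other genes of the list, chosen with their values in view, stood higher per kb of exon. FERMT3 had 1384 and 2123, above FLNA and TLN1, and APBB1IP had 844 and 1098, above VCL. Of the 11 kinases at adhesion sites all were listed and 10 had a mean of at least 50 in both clones. PTK2B, the FAK relative of hematopoietic cells, had 1485 and 1683 per kb, against 328 and 453 for PTK2, which encodes FAK itself. ABL1, a target of dasatinib, had 491 and 585 per kb, and SYK had 492 and 559.

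The ERM family joins the tail of CD44 to the actin cortex. MSN had 2728 per kb in clone 1 and 3467 in clone 2, EZR had 853 and 976, and RDX had 171 and 212, so MSN was above CD44 and RDX below it in both clones. NF2, an inhibitor of that link, had 146 and 174 per kb. Of 9 tetraspanins, membrane proteins that organise integrins at the surface, 8 had a mean of at least 50 in both clones. CD53 had 2576 and 3670 per kb, CD9 had 2415 and 3122, CD81 had 1436 and 1886, and TSPAN3 had 379 and 532. Per coding kb, CD9 stood above CD53, and TSPAN3 had 3299 and 4626 against 3723 and 4893 for CD81.

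Some of the ligand genes were not listed or were listed in clone 2 alone. Of 25 ligand genes of integrins and CD44, 15 were listed in clone 1 and 20 in clone 2, and 5 in neither. Of the 15 listed in both, 11 had a mean of at least 50 in both, against 11890 of the 15582 shared genes. Those listed in clone 2 alone had means of at most 2.76 there, near the lowest mean listed in clone 1, 2.52. ICAM2, a ligand of LFA-1, had 758 and 819 per kb, the laminin chain gene LAMC1 had 449 and 497, F11R had 266 and 285, and LAMA5 had 85.4 and 90.8. Per coding kb, F11R had 1431 and 1538, above LAMC1 with 733 and 812 and close to ICAM2 with 1408 and 1521. The choice of the following genes was made with their values in view. VCAM1, the stromal ligand of ITGA4 and ITGB1, was listed in neither table, and FN1, which encodes fibronectin, had means of 181 and 203. MADCAM1, the gut ligand of ITGA4 and ITGB7, was listed in clone 2 alone, at a mean of 1.20. That value is under the lowest mean listed in clone 1. HAS3, which makes hyaluronan, had means of 755 and 1166, and HAS2 was listed in neither table.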

How the data were processed

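RNA-seq libraries (12, stranded mRNA kit) of RCH-ACV sublines were grouped by GEO's labels. Tools listed in the submitters' processing notes, with no role given, are DESeq2, bedtools 2.19.0, 2 releases of BWA (0.7.7-r441 and 0.6.2-r126), FastQC 0.10.1, Picard 1.107 and SAMtools, and the build is hg19. The sources used here do not give the counter, the annotation or its use of strand, so overlapping genes are uncertain. The authors deposited 1 table per clone. The column used is a signal, the mean of size-factor-normalized counts over 6 libraries, per the file headers. The other columns hold the authors' own comparison of resistant with sensitive cells (log2 fold change, standard error, statistic, p-values and direction) and were not used. The planned edgeR test needs counts per library and was not run. In each of the deposited files, 2 entries share a symbol turned into a date and were left out of all matching.

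Means were divided by the merged length of protein-coding exons or, as an alternative, by the longest coding sequence (GENCODE release 29 basic set, GRCh38), for genes matched by symbol (86.0% in clone 1, 85.0% in clone 2). The clone ratio was left as deposited, or scaled in 3 ways. Python 3.11.15 and pandas 2.3.3 were used. The members and lists were chosen with earlier results of these data known. Named genes were the 9 members, up to 4 genes per list with the highest mean (uncorrected for length), and those said to be chosen with their values in view. Chromosomes are from the same annotation, and coordinates are not given because the builds differ.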

Additional observations from a re-analysis of the deposited data

How the results depend on the processing

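The ratio between the clones depended on the scaling. As deposited, the median ratio of the 9 members was 1.22, against 1.29 over all shared genes, with 8 members higher in clone 2. It was 0.948 with each table scaled to the same sum, 0.945 scaled to the median of shared genes and 0.944 scaled to the median of shared genes with a mean of at least 50, with 2 members higher in clone 2 each time (ITGA6 and ITGB7). By construction each scaling multiplies all members alike, so the order of their ratios does not depend on it. With coding length, the 4 summed alpha members were 2.34 times ITGB1 in clone 1 and 2.27 times in clone 2, and ITGA4 was 8.85 and 9.64 times the median gene. With all 12 alpha partners of ITGB1, a choice made after seeing the data, the sums were 2.68 and 2.60 times ITGB1. With a minimum mean of 50, 8 members were left in each clone, without ITGAL. ITGAL's mean in clone 2 was also under the minimum of 10, so it has no rank among the genes that pass it. No paired analysis was possible because the values pool all libraries of a clone, and for the same reason no replicate was left out and none of the alternatives planned for counts was run. The pooled means set the main limit: a difference between libraries or conditions within a clone cannot be seen in them.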
